A study of Oryza sativa with 6 samples.

Results

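The genes described here encode the protein phosphatases 2C (PP2C) of rice, and their transcripts were followed in the stem base of wild type and of the *crown rootless1* (*crl1*) mutant. Members were the genes whose symbol or synonym in the rice gene annotation is PP2C followed by a number, the Os prefix left aside. Of the 60 genes named in this way, 55 were paired with a probe set of the array, and 51 reached a geometric mean signal of 20 over the arrays and were tested, out of 15040 genes tested in all. The mutant forms no crown roots, the roots that rice grows from its stem, and the affected gene, *CRL1*, codes for a transcription factor of the LOB family. WT and *crl1* seedlings were of cultivar Taichung 65, grew on half-strength Murashige and Skoog agar medium, with no hormone named in the protocol, and were 7 day-old at harvest. Each replicate was a pool of 20 stem bases, the zone where crown root primordia form in WT, and 200 ng of its total RNA was amplified and hybridised to a GeneChip Rice Genome Array. The data are 6 arrays, numbered 1 to 3 in each genotype. The labels give arrays of the same number the same experiment, and each genotype was a single line.

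PP2Cs are metal-dependent phosphatases that remove phosphate from serine and threonine, and plants have far more of them than animals. The clade A enzymes are best known from abscisic acid (ABA) signalling. Without ABA they hold the ABA-responsive SnRK2 kinases in an inactive state. When the hormone binds its PYR/PYL/RCAR receptors, the receptors capture the phosphatase, the kinases are released, and transcription factors of the bZIP family switch on dehydrins and other response genes. Other clades act elsewhere, and in *Arabidopsis* clade B enzymes inactivate mitogen-activated protein kinases. The question put to the arrays was which transcripts differ when the stem base makes no crown roots.

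The signal of a probe set is a MAS5 intensity on a linear scale, with the trimmed mean of every array set to 100 by the authors' scaling, and it depends on the probes as well as on the transcript, so signals are compared between arrays and not between genes. On all arrays together 43.9 to 46.6% of the probe sets had a signal of at least 20. The brightest probe set reached 15946 to 18869 in replicates 1 and 2, but only 5201 (WT) and 5761 (*crl1*) in replicate 3. Markers of shoot, leaf and root were all measured, while 3 shoot, 1 leaf and 4 root markers had no probe set and *OSH43* of the shoot, *RBCS1* of the leaf and *QHB* of the root list were below the minimum of 20. *OSH43*, a homeobox gene, was not tested, and its weak signals were 2.15, 2.65 and 2.57 in WT and 10.1, 24.0 and 19.7 in *crl1*, higher in all 3 pairs. *OSH1*, a homeobox gene of the shoot meristem, had signals of 633 to 1223, *CAB2R*, a chlorophyll-binding protein gene, of 3934 to 9305, and *LSI1*, a silicon channel of roots, of 657 to 1021. None of the 6 shoot, 3 leaf and 6 root markers that were tested passed in *crl1* (limma, 1, 2 and 2 at an unadjusted p under 0.05). Of all tested probe sets 9.76% had an unadjusted limma p under 0.05. Of the 6 root markers 5 had a negative log2 fold change, *LSI2* reaching -0.94 (limma adjusted p = 0.127), and the part of tissue make-up in the values below was not tested. In RNA of whole stem bases, fewer cells of a type and less transcript per cell cannot be told apart.

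No PP2C gene passed the test between *crl1* and WT. Of the 51 genes, 0 were higher and 0 lower in *crl1* (limma with the replicate number as a block, adjusted p under 0.05, n = 3 arrays per genotype), against 0.651% of all 25045 tested probe sets, and at an unadjusted p under 0.05 there was 1 of 51, or 1.96%, against 9.76% of all. At that background fewer than 1 call would fall on 51 genes, and the count alone says little about the PP2Cs. The log2 fold changes, that is the log2 differences of *crl1* minus WT, ran from -0.42 to 0.38, 32 of them positive and 19 negative, with a median of 0.04 beside 0.0034 for all tested probe sets, and their median size was 0.09 beside 0.125. Only *PP2C30*, *PP2C16*, *PP2C69* and *PP2C47* differed by more than 0.3 on the log2 scale. In 42 of the 51 genes the difference between genotypes was smaller than the pooled SD of the log2 signal within a genotype. That SD includes shifts shared by arrays of the same number, which the block removes. It is not the error of the difference, and the same count over all tested probe sets was not made. The 95% interval lay between -1 and 1, that is within a 2-fold change either way, for 48 genes, and between -0.5 and 0.5 for 33. The intervals of *PP2C16*, *PP2C69* and *PP2C30*, all with geometric mean signals under 50, reached past 2-fold. These intervals are for each gene alone and are not widened for the number of genes.

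**Figure D1:**
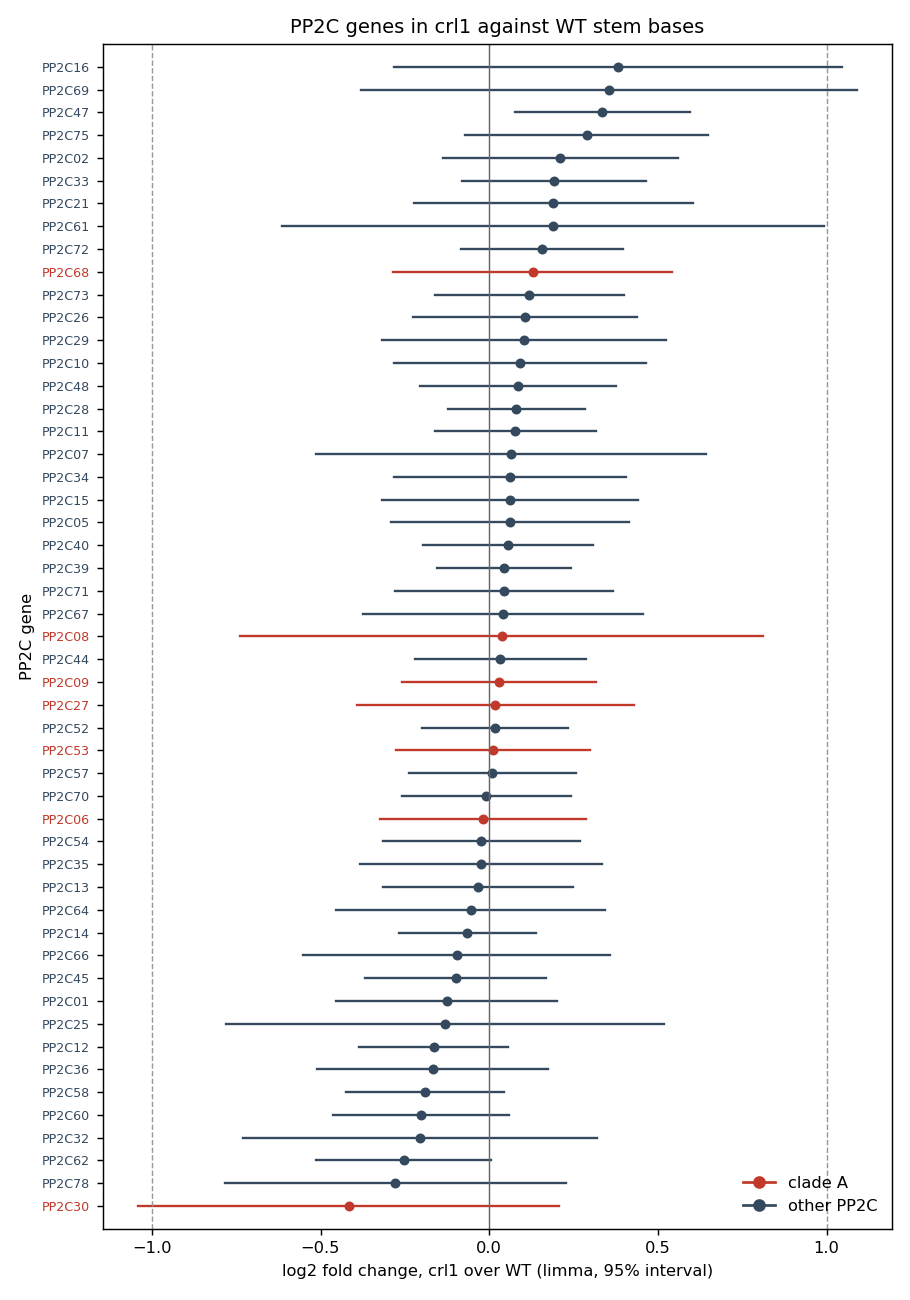
Log2 fold change of *crl1* over WT (x axis) for the 51 tested PP2C genes (y axis, in order of the change), from limma with the replicate number as a block. Points are estimates, bars 95% intervals and dashed lines 2-fold changes. Clade A genes are in red, and 48 of the 51 intervals stay inside the dashed lines.

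Within the replicate pairs, the ratio of *crl1* to WT lay on the same side of 1 in all 3 pairs for 14 genes, 8 higher and 6 lower in *crl1*, or 27.5% against 31.2% of all tested probe sets. No gene passed a ratio of 2 or 0.5 in all 3 pairs, which is the ratio part of the study's rule without its detection calls and p-values, where 0.228% of all tested probe sets did. Only *PP2C08*, *PP2C16* and *PP2C61* passed 2 in any pair, each in 1 pair, at 2.06, 2.51 and 2.23. The lowest ratio of any gene in any pair was 0.553. The signals of the 3 WT and the 3 *crl1* arrays did not overlap for 0 genes higher and 1 gene lower in *crl1*, *PP2C62*, against 3.65 and 3.64% of all tested probe sets.

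None of the genes listed here as clade A, the clade known for binding the ABA receptors, passed the test (0 of 7 also at an unadjusted limma p under 0.05). Clade membership was assigned by gene name from general knowledge of the family and not from a sequence tree, and *PP2C37* of that list had no match in the annotation. Single members, such as *PP2C27*, could therefore be misplaced, and the counts and the median given for the clade include them. Of the 10 names matched, 8 had a probe set and 7 were tested, and their median log2 fold change was 0.02. With a replicate left out that median ran from -0.0444 to 0.11, so its sign was not stable. *PP2C09*, a negative regulator of the ABA response in rice, gave 88.2, 149 and 162 on the WT arrays 1, 2 and 3, and 93.4, 151 and 160.4 on those of *crl1*. The arrays fell into pairs by replicate number, with replicate 1 low in both genotypes and the genotypes almost level in each pair (ratios 1.06, 1.01 and 0.99). The log2 difference was 0.03 (SE, the standard error, 0.13, 95% interval -0.26 to 0.32, limma adjusted p = 0.974). *PP2C53*, also called *ABIL2*, whose product lowers ABA sensitivity, had signals of 137, 131 and 218 in WT and 149, 115 and 234.5 in *crl1*. Replicate 3 was the highest in both genotypes, and the fold change between them was 0.01 on the log2 scale (SE 0.13, 95% interval -0.28 to 0.30, limma adjusted p = 0.99).

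*PP2C06*, or *ABIL1*, was even across the arrays, WT reading 209, 154 and 191 and *crl1* 170.2, 185 and 189. Its log2 fold change was -0.02 (SE 0.14, limma adjusted p = 0.985), with the *crl1* arrays inside the range of WT. *PP2C68*, or *SIPP2C1*, a regulator of ABA and stress responses in rice, read 52.3, 53.2 and 62.4 in WT and 64.7, 55.0 and 63.7 in *crl1*. It was higher in *crl1* in all 3 pairs but with overlapping groups, at a log2 difference of 0.13 (SE 0.18, limma adjusted p = 0.886). *PP2C27*, which takes part in the cold response of rice, gave 75.6, 115 and 61.5 in WT, against 96.3, 88.6 and 65.2 in *crl1*. Replicate 3 was the lowest in both genotypes, and the log2 difference was 0.02 (SE 0.18, limma adjusted p = 0.989).

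The remaining tested genes of the clade, *PP2C30* and *PP2C08*, were dim. *PP2C30*, which works with an ABA receptor and the kinase SAPK2 in rice, had signals of 20.7, 25.3 and 51.9 in WT and 18.5, 17.3 and 35.8 in *crl1*. It was lower in *crl1* in every pair (ratios 0.894, 0.683 and 0.689), and it had the largest negative log2 fold change of the 51 genes, -0.42 (SE 0.28, 95% interval -1.04 to 0.21, limma adjusted p = 0.693). The groups overlapped, and replicate 3 was the highest in both genotypes. *PP2C08* read 23.5, 45.7 and 30.2 in WT and 48.4, 26.9 and 26.8 in *crl1*, with pairs pointing opposite ways and a log2 difference of 0.04 (SE 0.34, limma adjusted p = 0.988). *PP2C51*, which acts in seed germination, was below the minimum at 1.48 to 16.2. *PP2C49* and *PP2C50* had no probe set paired with them here.

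**Figure D2:**
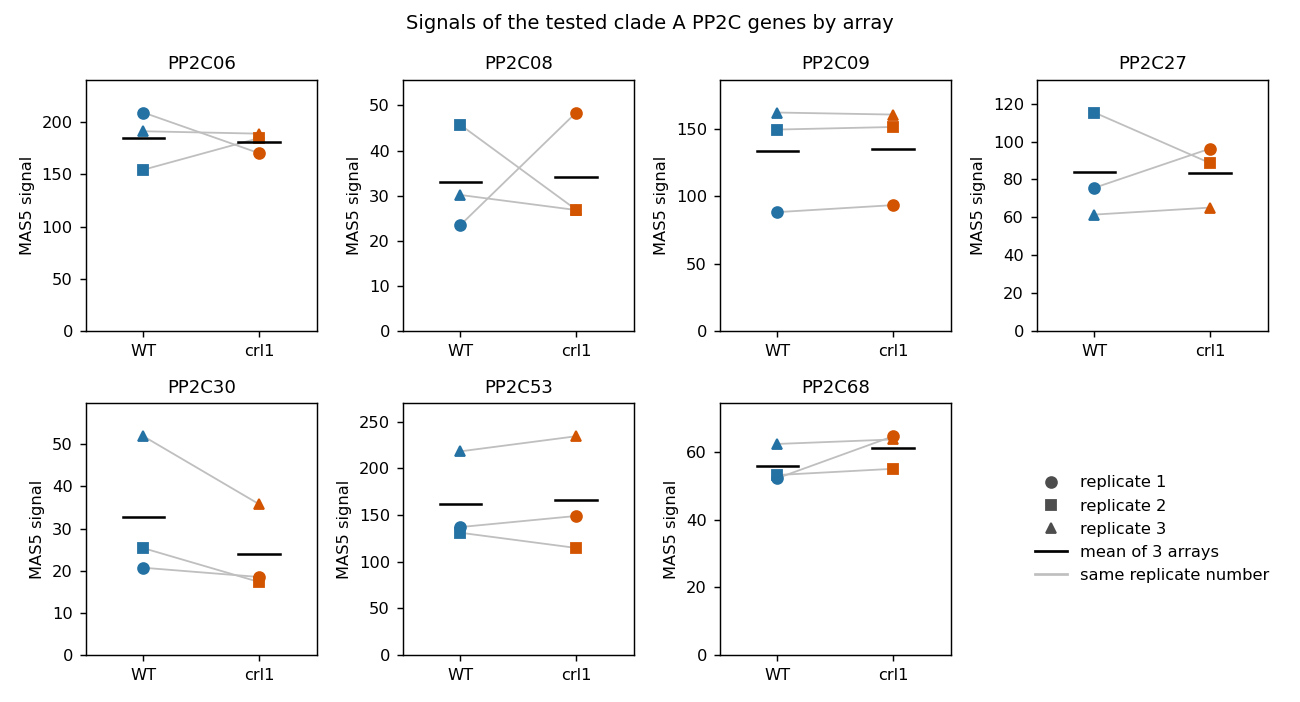
MAS5 signal (y axis, linear, from 0) of the 7 tested clade A genes in WT and *crl1* (x axis). Each point is an array, its shape gives the replicate number, grey lines join arrays of the same number and black bars are means of 3 arrays. For *PP2C09* and *PP2C53* the lines run nearly flat while the replicates lie apart.

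Among the 44 tested genes outside clade A, *PP2C47* had the smallest p. Its signals were 363, 321.5 and 496.5 in WT and 406.5, 497 and 576 in *crl1*. All 3 pairs were higher in *crl1* (ratios 1.12, 1.55 and 1.16), yet WT replicate 3 lay above *crl1* replicate 1. The log2 difference was 0.34 (SE 0.11, 95% interval 0.08 to 0.59, limma adjusted p = 0.361). That probe set is of a kind that can also bind transcripts of related genes, and the other probe set of *PP2C47*, with signals of 51.5 to 83.9, gave 0.20 (SE 0.19, limma adjusted p = 0.808).

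*PP2C62* was the tightest of the genes that leaned towards WT. It had 197, 203 and 206 in WT and 173, 161 and 174 in *crl1*, with every WT array above every *crl1* array, and the mean went from 202 ± 4.89 (SD, n = 3) to 169 ± 7.19. The log2 difference was -0.25 (SE 0.11, 95% interval -0.51 to 0.0049, limma adjusted p = 0.519). *PP2C58*, *PP2C60*, *PP2C12* and *PP2C36* were also lower in all pairs, at log2 differences of -0.19, -0.20, -0.16 and -0.17, with limma adjusted p-values of 0.62 to 0.798. *PP2C58*, for example, had 357, 309 and 375 in WT and 299, 301 and 309.5 in *crl1*. *PP2C75*, *PP2C33*, *PP2C72* and *PP2C02* were higher in all pairs, with log2 fold changes of 0.29, 0.19, 0.16 and 0.21 and limma adjusted p-values of 0.626 to 0.731. For *PP2C75* the third pair was furthest apart (92.6 and 140.7, WT first), and its other 2 probe sets gave 0.08 and 0.02. *PP2C78* stood at -0.28 (SE 0.22, limma adjusted p = 0.761) with signals of 28.0 to 51.6.

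Several PP2C genes have named roles in rice. *PP2C35* encodes XB15, a phosphatase that acts on the immune receptor kinase XA21. WT gave 122.5, 133 and 186 and *crl1* 155.5, 100.3 and 185, a log2 difference of -0.02 (SE 0.16, 95% interval -0.38 to 0.34). *PP2C34*, or *BIPP2C2*, a gene of the defence-induced type, ranged from 86.1 to 110 in WT and from 80.8 to 138 in *crl1* (log2 difference 0.06, SE 0.15). *PP2C13*, or *DCW11*, known from work on cytoplasmic male sterility, gave 242, 268 and 191 in WT, against 266, 215 and 202 in *crl1* (-0.03, SE 0.13). The groups overlapped for all 3 genes.

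Geometric mean signals of the tested PP2C genes lay between 20 and 50 for 7 genes, between 50 and 200 for 23 and above 200 for 21. In 48 of the 51 every array was at 20 or above (not in *PP2C30*, *PP2C61* and *PP2C69*), and the brightest genes varied to different degrees. *PP2C28* had 754, 772 and 784 in WT and 837, 846 and 761 in *crl1*, and *PP2C14* 764, 730.0 and 702 in WT and 675, 719 and 704 in *crl1*. *PP2C45* ran from 504 to 722 and *PP2C39* from 456 to 762, with pooled SDs of 0.197 and 0.353 on the log2 scale, against 0.0627 for *PP2C28* and 0.0539 for *PP2C14*. *PP2C52* was nearly as even as these last, with 532, 485 and 553 in WT, against 507, 546 and 533 in *crl1*. The largest spread within a genotype was that of *PP2C61*, a dim gene at 25.9, 13.5 and 56.6 in *crl1*, an SD of 1.03 on the log2 scale. *PP2C16* read 67.4, 22.8 and 53.7 in WT and 71.2, 57.0 and 44.8 in *crl1*. Its log2 fold change of 0.38, the largest positive one, was -0.0912 without replicate 2, whose WT array was the single low one. *PP2C07* had its high arrays at opposite numbers, 324 in WT replicate 1 and 290.0 in *crl1* replicate 2, and the log2 difference was 0.06 (SE 0.26). A further group of tested members, with *PP2C45* again, was *PP2C01*, *PP2C05*, *PP2C15*, *PP2C21*, *PP2C25*, *PP2C26*, *PP2C32*, *PP2C40*, *PP2C44*, *PP2C45*, *PP2C54*, *PP2C57*, *PP2C64*, *PP2C66*, *PP2C67*, *PP2C70* and *PP2C73*. These 17 genes, 9 above and 8 below 0, lay between -0.21 and 0.19 on the log2 scale (limma adjusted p = 0.809 to 0.991), with geometric mean signals of 35.1 to 583. *PP2C71*, by its brightest probe set, stood at 0.0435 (SE 0.144, limma adjusted p = 0.9625). Over the 51 genes the median pooled SD of the log2 signal within a genotype was 0.255, beside 0.276 for all tested probe sets.

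Just inside the minimum was *PP2C69*, with a geometric mean signal of 20.2, and just outside was *PP2C51* at 5.69. The other genes left untested were *PP2C59*, *PP2C18* and *PP2C31*, at 2.48, 2.01 and 0.665. *PP2C59* read 0.512, 1.65 and 19.9 in WT and 0.628, 1.84 and 11.9 in *crl1*, with both replicate 3 arrays above the rest at weak signals. *PP2C41*, *PP2C65* and *PP2C77*, like *PP2C49* and *PP2C50*, had no probe set and are not analysed here. The study also names a PP2C gene by a locus number that the tables used here do not pair with a symbol, and no value is given under that number. Whether it is one of the 51 tested genes is not known here, so the count of 0 calls makes no statement about it.

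In 20 of the 51 PP2C genes, or 39.2%, both replicate 3 arrays lay outside all others, against 42.1% of all tested probe sets, a share near the background. By direction, both replicate 3 arrays lay above all 4 other arrays in 14 of the 51 genes, or 27.5% (19.2% of all tested probe sets), and below them in 6, or 11.8% (22.9% of all). In 34 genes replicate 3 was above the mean of replicates 1 and 2 in both genotypes (66.7%, against 35.9% of all tested probe sets), in 11 it was below in both (21.6%, against 41.4%), and in 6 the genotypes differed in sign. The counts above and below all other arrays were 10 and 5 with quantile normalization, and 14 and 7 as means over probe sets. For these settings no share over all tested probe sets is given, so the lean towards high signals depends in part on the scaling. No test was made of these shares, since replicate 3 was known to stand apart on the whole array. Over the 51 genes, which share the same arrays, the differences of replicate 3 in WT and in *crl1* correlated at r = 0.723, and over all tested probe sets at 0.747.

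*PP2C11* was the clearest case of a low replicate 3. It had signals of 372, 372 and 173 in WT and 390.2, 360.1 and 199.7 in *crl1*. Both replicate 3 arrays lay far below the other arrays. Between genotypes its log2 difference was 0.08 (SE 0.11, 95% interval -0.16 to 0.32). Of the genes high in replicate 3, *PP2C10* had 252, 175 and 350.4 in WT and 193, 263 and 369.5 in *crl1*. *PP2C48* had 156, 187 and 257 in WT and 185, 163 and 297 in *crl1*. *PP2C39* had 557, 456 and 741 in WT and 577, 468 and 762 in *crl1*, and *PP2C29* 52.9, 37.1 and 70.8 in WT and 59.5, 37.7 and 76.6 in *crl1*. In *PP2C39* and *PP2C29* all 3 numbers kept their order in the other genotype. Of the genes listed as clade A, *PP2C30*, *PP2C53* and *PP2C09* were among the 14 high genes and *PP2C27* among the 6 low ones.

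**Figure D3:**
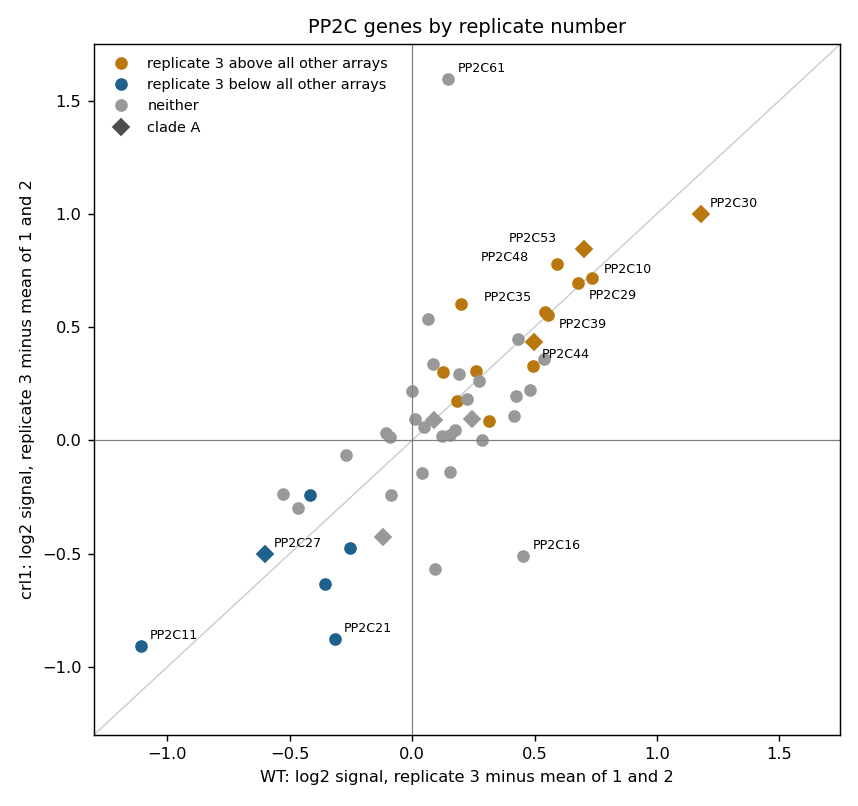
Log2 signal of replicate 3 minus the mean of replicates 1 and 2 in WT (x axis) and in *crl1* (y axis) for the 51 tested PP2C genes. Diamonds are clade A, colours mark genes whose replicate 3 arrays lie above (14) or below (6) all other arrays, and the grey diagonal marks equal differences. Most genes lie near the diagonal, with *PP2C61* and *PP2C16* away from it.

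Of the genes around the PP2Cs in ABA signalling, 1 fell in *crl1*. *RAB16D*, a dehydrin gene of the ABA and drought response, had signals of 115, 74.8 and 481 in WT and 47.8, 42.4 and 181 in *crl1*. Replicate 3 was the highest in both genotypes, each *crl1* array was below the WT array of its number (ratios 0.414, 0.567 and 0.376), and the groups overlapped across numbers. The log2 difference was -1.17 (SE 0.16, limma adjusted p = 0.0172), a call lost without replicate 3 (-1.04, adjusted p = 0.169), without the block (adjusted p = 1) and without the mean-variance trend (adjusted p = 0.227), the alternatives spanning 0.00624 to 1. It was the single call among 8 tested ABA response genes, where 0.651% of all tested probe sets passed. At an unadjusted limma p under 0.05 there were 2 of 8, against 9.76% of all. Among dehydrins of the same family, *RAB16C*, *RAB21*, *RAB16B* and *Dhn1* stood at -0.67, -0.39, 0.01 and -0.02 (limma adjusted p = 0.394, 0.75, 0.997 and 0.968). The ratios in the 3 pairs were 1.5, 0.83 and 0.356 for *RAB21* and 2.67, 0.562 and 0.675 for *RAB16B*, with pairs on both sides of 1. *RAB16C* passed without replicate 1 (-1.04, adjusted p = 0.0324, the alternatives spanning 0.0324 to 1). Probe sets of such related genes may share transcripts. *EM*, an embryo gene, was at 0.25 (SE 0.29), *LEA19* at -0.10 (SE 0.36) and *salT* at 0.04 (SE 0.09).

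Of the genes upstream of these none passed. All 10 SnRK2 kinases, *SAPK1* to *SAPK10*, only some of which respond to ABA, were tested, 6 of them above and 4 below 0, from -0.18 to 0.24 on the log2 scale (median 0.04, limma, with 0 at p under 0.05 before adjustment). *SAPK6*, *SAPK9*, *SAPK2* and *SAPK3* came nearest, at 0.24, 0.23, -0.18 and -0.16 (limma adjusted p = 0.618 to 0.676). *SAPK9* had 164, 206.5 and 88.7 in WT and 213, 215 and 107 in *crl1*, with both replicate 3 arrays low. *PYL11*, the only ABA receptor the annotation names so that it could be matched, had 608, 564.5 and 411 in WT and 683, 564 and 352.5 in *crl1* (-0.02, 95% interval -0.25 to 0.21). The bZIP factors *TRAB1* and *ABF2* stood at -0.12 and -0.07 (limma adjusted p = 0.799 and 0.909). Of ABA metabolism, *ABA8OX2* and *ABA8OX1*, which encode enzymes that break ABA down, stood at 0.37 and 0.20 and *ABA1*, of its synthesis, at 0.06 (limma adjusted p = 0.61, 0.841 and 0.942).

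No call was made among the 16 tested genes of the mitogen-activated protein kinase list (limma, with 1 at p under 0.05 before adjustment). The list also holds *MEK1*, which by its name encodes a kinase of such kinases. *MPK2*, *MPK7*, *MPK13* and *MPK5* came nearest, at log2 fold changes of 0.45, -0.28, -0.26 and 0.20 (limma adjusted p = 0.509 to 0.773). Of the genes of PP2A, a phosphatase of another family, none passed. *PP2A4*, *PP2A2*, *PP2A1* and *PP2A3* stood at 0.16, -0.12, 0.05 and 0.03 (limma adjusted p = 0.614 to 0.963, 0 of 4 at an unadjusted p under 0.05).

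**Figure D4:**
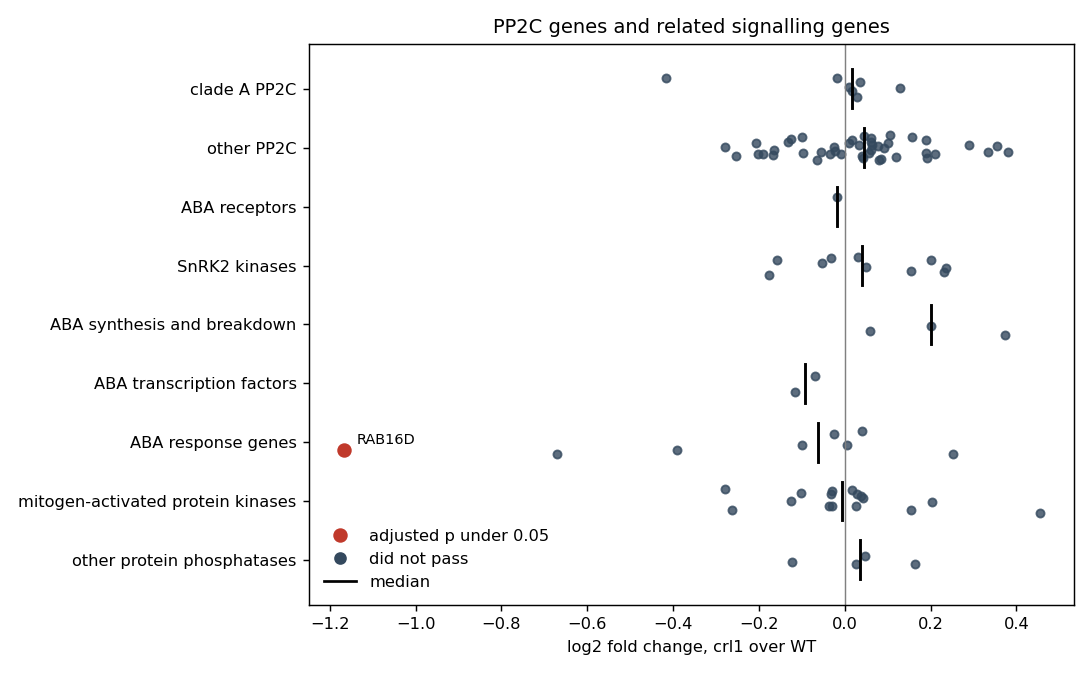
Log2 fold change of *crl1* over WT (x axis) for each tested gene of the clade A and other PP2Cs and of 7 related lists (y axis, points spread vertically to separate them). Black bars are medians. *RAB16D*, in red at -1.17, is the only point with a limma adjusted p under 0.05.

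The genes lie on all 12 rice chromosomes in the annotation, from 1 gene on chromosome 8 to 12 on chromosome 2, and only *PP2C16* and *PP2C18* are near neighbours, with 3 genes between them. Of 11 tested genes with more than 1 probe set, 8 had at least 2 that were tested. Their probe sets took opposite signs for *PP2C07* and *PP2C71*, and in neither was a probe set at an unadjusted p under 0.05. Of all 60 tested probe sets of PP2C genes 0 passed (limma adjusted p under 0.05, 1 at an unadjusted p under 0.05).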

How the data were processed

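The authors ran the MAS5 algorithm of Expression Console with its defaults and scaled every array globally to a target of 100. The deposited values are the resulting intensity of each probe set on a linear scale. Program versions were not given in the sources read. Of 57381 probe sets, 187 controls were left out. Without a pseudocount, log2 signals were formed, and the 25045 probe sets with a geometric mean of at least 20 over the 6 arrays were fitted in limma 3.58.1 (R 4.3.3) with the replicate number as a block, an empirical Bayes prior that follows the mean signal (7.33 prior degrees of freedom) and Benjamini-Hochberg adjustment over all of them, at a threshold of 0.05. The minimum can drop a gene that only 1 genotype expresses. The block follows the study, which compared genotypes within each replicate, and arrays of the same number deviated together from their genotype means (correlations 0.39, 0.451 and 0.747). Across numbers, WT replicate 1 with *crl1* replicate 2 gave 0.232, and WT replicate 2 with *crl1* replicate 1 gave 0.0597. Deviations within a genotype sum to 0, so a shared shift of replicate 3 alone raises all correlations among replicates 1 and 2. The number of arrays limits the precision. Tested on simulated data for this comparison over 25045 probe sets, the fit recovered 77 of 100 true changes of log2 1 and 97 of 100 of log2 2, and it called 11 of 24845 unchanged probe sets. The simulated noise was normal, independent and drawn with the variances of the fit itself, so recovery in real arrays may be lower. No change smaller than log2 1 was simulated.

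Probe sets were paired with genes through a platform annotation that may be old (22436 with 1 gene, 95 with several, 34663 with none), names came from RefSeq's rice annotation, and the brightest probe set stood for each gene. Members, lists and the genes to be named (clade A, the members with the smallest p, the largest spread or the widest replicate 3 gap, and up to 4 genes of each list) were chosen with earlier results of these data known. After their matches were seen, 3 genes were taken out of lists where an old name had placed them. Nothing says that replicates were separate cultures beyond the study calling them independent, and p-values measure the spread between these pools. Alternatives dropped the block, the minimum, the trend, each replicate or the probe sets that may cross-hybridise. Others raised the minimum to 50, added 16 to each signal, used quantile normalization or median centring, averaged the probe sets of a gene, or took the ratio part of the study's rule. Python 3.11.15, pandas 2.3.3, numpy 2.4.6 and matplotlib 3.10.9 were used for counts and figures.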

Additional observations from a re-analysis of the deposited data

How the results depend on the processing

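The count of PP2C genes past the test was 0 higher and 0 lower in all 12 alternative fits and by the ratio part of the study's rule, at 0 to 3 genes per direction with an unadjusted limma p under 0.05, and their median log2 fold change ran from 0.0024 (without replicate 1) to 0.05. Of the 51 genes, 23 kept the sign of their change in every alternative that gave them a value, and 28 did not. Some genes dropped out of some alternatives, and *PP2C69* had a value in only 8 of the 12. For all tested probe sets the numbers higher and lower in *crl1*, 51 and 112, were 1 and 4 without the replicate block, 0 and 0 without the trend (before adjustment, 1191 and 1107 had a limma p under 0.05), 20 and 61 as means over probe sets, 13 and 44 by the ratio, and 34 to 135 and 91 to 241 with a replicate left out. The single call among the other lists, *RAB16D*, became 0 without the replicate block, without the trend (0 calls, 1 lower gene at an unadjusted p under 0.05) and by the ratio, and 0 to 2 genes were lower with a replicate left out. The summed lists were tried under these settings after seeing the data. Signs turned for *PP2C08* with quantile normalization (-0.0035), for *PP2C71* without probe sets that may cross-hybridise (-0.21) and as a mean over probe sets (-0.0853), and for *PP2A4* as such a mean (-0.0368). With a replicate left out, the log2 fold changes that crossed 0 ran as follows: *ABF2* -0.19 to 0.0219, *EM* -0.21 to 0.63, *MPK5* -0.0037 to 0.36, *PP2A3* -0.005 to 0.0513, *PP2C05* -0.0273 to 0.10, *PP2C06* -0.16 to 0.12, *PP2C07* -0.34 to 0.52, *PP2C08* -0.47 to 0.44, *PP2C10* -0.16 to 0.33, *PP2C13* -0.12 to 0.11, *PP2C15* -0.0457 to 0.20, *PP2C16* -0.0912 to 0.70, *PP2C25* -0.39 to 0.23, *PP2C26* -0.0075 to 0.29, *PP2C27* -0.15 to 0.22, *PP2C32* -0.52 to 0.12, *PP2C34* -0.0736 to 0.14, *PP2C35* -0.21 to 0.17, *PP2C40* -0.048 to 0.16, *PP2C44* -0.0558 to 0.088, *PP2C45* -0.27 to 0.0182, *PP2C52* -0.0602 to 0.0598, *PP2C53* -0.0444 to 0.11, *PP2C54* -0.15 to 0.0538, *PP2C57* -0.0573 to 0.12, *PP2C61* -0.29 to 0.52, *PP2C64* -0.33 to 0.14, *PP2C66* -0.36 to 0.17, *PP2C67* -0.0844 to 0.26, *PP2C70* -0.0739 to 0.0425, *PP2C71* -0.13 to 0.14, *PP2C73* -0.0387 to 0.20, *PYL11* -0.11 to 0.0827, *RAB21* -0.88 to 0.16. The causes were not tested. Small signals limit the dim genes, and a change of under log2 1 would often be missed.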
